A study of Mus musculus with 4 samples.

Results

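Interleukins and interleukin receptors were taken as the protein-coding genes of mouse RefSeq (GRCm38.p6, the assembly of mm10) whose symbol is Il followed by a digit. There were 83 such genes of 21887, made up of 37 cytokine genes, 36 genes of receptor chains, and 10 accessory genes that encode decoy receptors, antagonists, binding proteins and other proteins with an interleukin name. A gene was called marked when a deposited H3K27me3 peak lay in it or within 2000 bp of either end. H3K27me3 is trimethylation of lysine 27 of histone H3. The mark was measured by ChIP-seq (sequencing of immunoprecipitated chromatin) in the mouse glioblastoma cell line GL261. One library came from control cells and 1 from irradiated cells, the label IR being read as irradiated because the series title speaks of radiation treatment. Each condition also had an input library, which was not analysed here by itself. Neither radiation dose nor harvest time is given in the sources used here. Both groups are the same line without a further genetic change named in the labels. The files hold no expression values, so the labelled cell type could not be set against marker genes. With 1 library per group no difference between the lists was tested, and all intervals cover counting error only.

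Interleukins are secreted proteins through which immune cells and tissue cells signal to each other. Each binds a set of receptor chains, several of which are shared between cytokines. The common gamma chain serves IL-2, IL-7, IL-15 and IL-21, and the common beta chain serves IL-3 and IL-5. Most interleukin genes are active in few cell types, such as activated T cells or macrophages. H3K27me3 is deposited by Polycomb repressive complex 2 at silent genes, and in mammals its broad domains lie mainly over promoters rich in CG dinucleotides.

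Promoters were examined first, since the position of a peak relative to the start site was not used to choose the genes. RefSeq sequences of 300 bases, from 250 bases before to 50 after the start site, matched 66 of the 83 genes, with 81 promoters. These promoters were poor in CG: the median was 4 CG dinucleotides per promoter (quartiles 3 and 8), against 13 (quartiles 4 and 24) in 21263 promoters of all protein-coding genes. At most 5 CG were found in 61.7% of interleukin promoters and in 32.3% of all promoters. The highest counts belonged to Il3ra (35 CG), the receptor chain specific for IL-3, to Il4i1b (34 CG), to Il1rap (33 CG), the shared chain of IL-1 and IL-33 receptors, and to Il6st (33 CG), which encodes the signalling chain gp130 of the IL-6 family. None of these 4 genes had a peak in either list. Such a peak was found at 10.6% of all genes, so 4 genes are too few to read a result from this. Members with a peak had a median of 5 CG in 15 promoters, and members without one a median of 4 CG in 66 promoters. The motif TATAAA, searched on both strands, was found in 17.3% of the interleukin promoters and in 12.6% of all promoters. CG reads the same on both strands, and the letters of the motifs do not overlap.

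**Figure D1:**
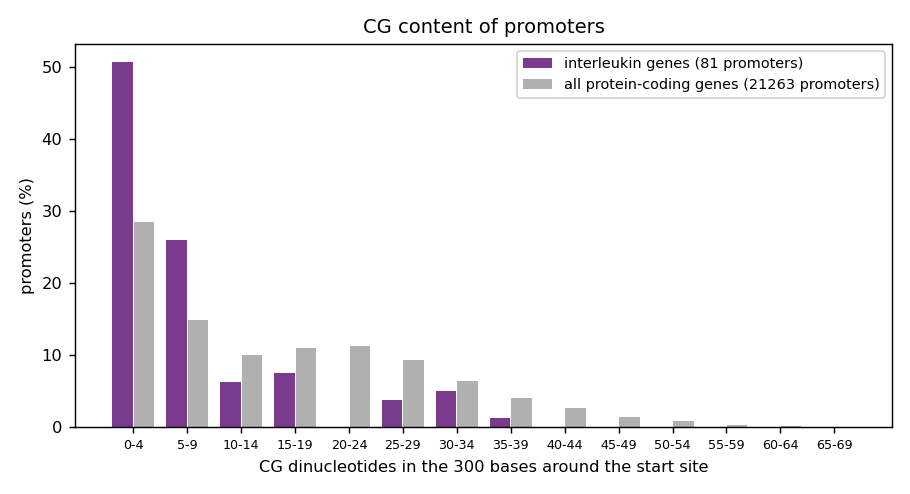
Share of promoters (y axis, percent) by the number of CG dinucleotides in the 300 bases around the start site (x axis), for 81 promoters of interleukin genes (purple) and 21263 promoters of all protein-coding genes (grey). The lowest class, 0 to 4 CG, held 50.6% of the interleukin promoters and 28.4% of all promoters.

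Among the 66 genes with a promoter sequence, a peak overlapped the promoter of 2, Il21 in the control list and Il5 in the irradiated list. Of the genes with a peak, Il24, Il2rb and Il22ra2 had no promoter sequence, so theirs could not be examined. Among all 21263 promoters, 0.193% were overlapped by a control peak and 0.376% by an irradiated peak. The sequences below run from 250 bases before to 30 bases after the RefSeq start site, 5′ to 3′ on the strand of the gene. They are shown because they are the examined interleukin promoters that a listed peak reached. Capitals mark the bases that lie within the peak. Il21 is on the minus strand, at chr3:37232607-37232886, and Il5 on the plus strand, at chr11:53720544-53720823 (GRCm38.p6).
Il21: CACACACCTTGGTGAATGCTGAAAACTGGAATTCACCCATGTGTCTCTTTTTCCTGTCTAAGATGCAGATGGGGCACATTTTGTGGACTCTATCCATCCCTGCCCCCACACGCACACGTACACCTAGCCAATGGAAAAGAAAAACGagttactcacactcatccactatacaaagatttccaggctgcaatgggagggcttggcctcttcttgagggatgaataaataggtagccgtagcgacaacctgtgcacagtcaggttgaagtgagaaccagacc
Il5: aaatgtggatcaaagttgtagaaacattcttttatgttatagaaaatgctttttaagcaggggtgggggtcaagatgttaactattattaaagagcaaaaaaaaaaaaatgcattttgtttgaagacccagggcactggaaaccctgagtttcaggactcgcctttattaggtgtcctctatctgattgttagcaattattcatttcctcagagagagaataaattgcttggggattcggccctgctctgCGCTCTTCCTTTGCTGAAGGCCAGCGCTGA
The peak at Il21 took in 146 of the bases before the start site and that at Il5 began on the start site itself, at position 53720794. The Il21 promoter holds 5 CG and the Il5 promoter 4 CG, and neither holds TATAAA.

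The control list of 9866 peaks marked 10 of the 83 genes (12.0%, 95% exact interval 5.93 to 21.0), and the irradiated list of 16091 peaks also marked 10 (12.0%). Among all protein-coding genes 6.05% were marked by control peaks and 8.20% by irradiated peaks. The gene group was proposed with these lists known, so the shares are a description. Together 16 interleukin genes were marked (19.3%, against 10.6% of all genes): 4 in both lists (4.82%, against 3.67%), 6 in the control list alone (7.23%, against 2.38%) and 6 in the irradiated list alone (7.23%, against 4.53%). The 4 genes in both lists were Il12b, Il5, Il2ra and Il2rb. Control peaks marked 4 and irradiated peaks 6 of 37 cytokine genes. For receptor genes the numbers were 5 and 3 of 36, and for accessory genes 1 and 1 of 10. By number of peaks, the 37 cytokine genes had 5 control and 15 irradiated peaks, the receptor genes 6 and 5, and the accessory genes 1 and 1. Of the 15 irradiated peaks at cytokine genes, Il24 held 5 and Il12b 4. Over all members there were 12 control and 21 irradiated peaks. With as many irradiated as control peaks, taken by lowest p, 12 control and 9 irradiated peaks lay at members, so the order turned. Control peaks then marked 10 members and irradiated peaks 6. No share of all genes is given at this setting, so the turn cannot be called particular to interleukin genes. The windows of all 83 genes came to 5.04 Mb and held 2.38 control and 4.17 irradiated peaks per Mb, against 2.88 and 5.50 in those of all protein-coding genes. Without the 2 longest members, Il1rapl1 and Il1rapl2 on the X chromosome, which had no peak, the rates were 5.05 and 8.84 peaks per Mb. Genes of up to 2390 kb and the X chromosome stayed in the rates of all protein-coding genes. The rates without Il1rapl1 and Il1rapl2 therefore have no matched background and do not show an excess at members.

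**Figure D2:**
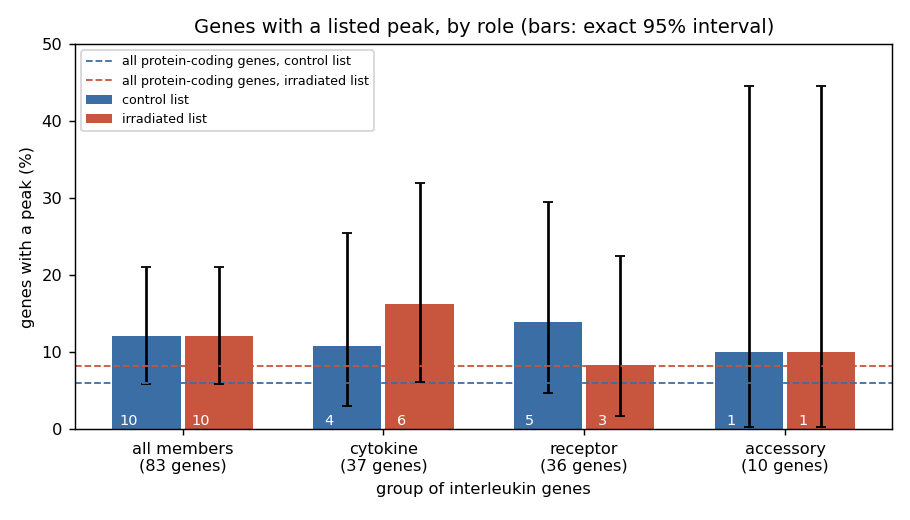
Share of genes with a listed peak (y axis, percent) for all interleukin genes and for cytokine, receptor and accessory genes, in the control list (blue) and the irradiated list (red); white digits give the number of marked genes, bars exact 95% intervals, and dashed lines the shares of all protein-coding genes (6.05% and 8.20%). The intervals of the 2 lists overlap in every group.

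The peaks were weak by the authors' own values. No peak at an interleukin gene had a q, the p adjusted by the authors' caller, of at most 0.05 in either list, and a count of 0 of 83 genes allows, as 3 counts of the total, a share of up to 3.61% (exact 95% upper limit 4.35%). Such a peak was found at 0.516% (control) and 2.08% (irradiated) of all genes. At a −log10 p of at least 5, 0 members were marked in the control list, against 0.859% of all genes, and 3 in the irradiated list (3.61%, against 3.28%), namely Il24, Il2ra and Il5. The lowest q at a member was 0.385 in the control list, at Il6 and Il12rb2, and 0.0536 in the irradiated list, at Il24, Il12b, Il5, Il2ra and Il17rd. The median fold enrichment at the summit was 3.29 for the 12 control peaks, against 3.43 for the whole list, and 3.36 for the 21 irradiated peaks, against 3.67. From fold and p the number of ChIP reads at each summit was recovered. Member peaks rested on 7 to 16 reads in the control list (median 9) and 8 to 14 in the irradiated list (median 10), and at the lowest background the lists began at 7 and 8 reads. Of the 12 control peaks 3 overlapped an irradiated peak (25.0%, 5.49 to 57.2), against 21.4% in the whole control list.

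**Figure D3:**
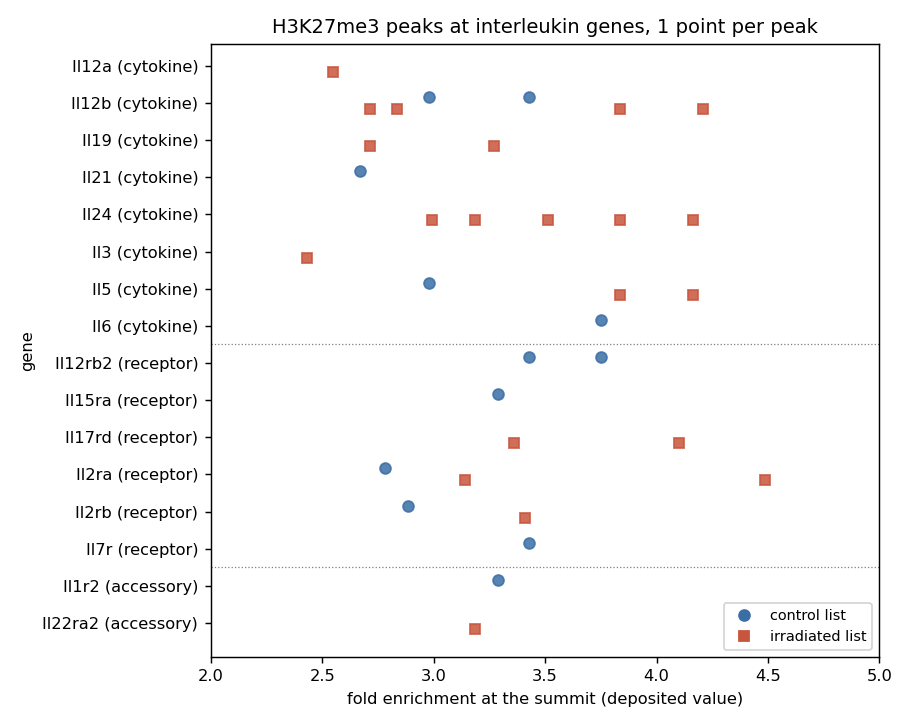
Fold enrichment at the summit (x axis, the deposited value) of every peak at the 16 marked interleukin genes (y axis, grouped by role), 1 point per peak, with control peaks as blue circles and irradiated peaks as red squares. The highest fold is 4.49, an irradiated peak of Il2ra, and no control peak lies above 3.75.

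Among the cytokines, Il24 had the most irradiated peaks, 5, and Il12b the most over both lists, 6. Il24 encodes a cytokine of the IL-10 family that acts on epithelial cells (chromosome 1, 130882074 to 130887411). All peaks of Il24 came from the irradiated list. They lay within 5.44 kb and covered 2443 bp. In order along the chromosome their folds were 2.99, 3.84, 4.16, 3.51 and 3.19, with 9, 10, 11, 9 and 8 reads. Their q values were 0.857, 0.149, 0.0536, 0.537 and 0.537 in the same order. With as many irradiated as control peaks, taken by lowest p, Il24 stayed marked, but without its peaks of q 0.537 and 0.857. The ranks below use the full irradiated list. The strongest, at 130883469 to 130884331, had a p of 9.20e-06 and a q of 0.0536. At least 5 irradiated peaks were found at 341 genes, of which 7, Il24 included, were no longer than its 5.34 kb, a length that 5260 genes do not exceed. Of the 341 genes, 48 had no control peak in the window, and 2 of these, Il24 included, were no longer than Il24. Because Il24 was singled out among the members by its irradiated peaks, these ranks are a description and not a test. The nearest control peak began 3184 bp beyond the gene, so it fell outside the window of 2000 bp but inside one of 5000 bp, with which Il24 was marked in both lists. This control peak had 10 reads and a fold of 3.75. The 2 irradiated peaks with the lowest coordinates also lay within 2000 bp of Fcmr, which encodes the receptor for IgM.

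Il24 belongs to a cluster of IL-10 family cytokines with Il20, Il19 and Il10. The 143 kb of the cluster, with 2000 bp on either side, held 5 control and 12 irradiated peaks. Of these, 0 control and 7 irradiated peaks were at the genes themselves. Il19, which encodes a cytokine that shares a receptor with IL-20 (130932656 to 130945457), had 2 irradiated peaks with folds of 2.71 and 3.27, on 8 and 10 reads, with q of 0.857 and 0.446. Their summits lay 1312 bp after and 1803 bp before a RefSeq start site. Il20 and Il10, which encodes the main anti-inflammatory interleukin, had no peak. A control peak lay 4266 bp from Il10, with a fold of 3.75.

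Il12b encodes the subunit shared by IL-12 and IL-23, cytokines that macrophages and dendritic cells release to activate T cells (chromosome 11, 44400063 to 44414677). It held 2 control peaks, with folds of 2.98 and 3.43, and 4 irradiated peaks, with folds of 4.21, 2.71, 3.84 and 2.84. One site was listed in both, with an overlap of 357 bp and summits 11076 and 11095 bp after the start site. In control cells that site had 8 reads and a fold of 2.98, and in irradiated cells 10 reads and a fold of 3.84. The strongest irradiated peak, at 44403977 to 44404246, had 14 reads and a q of 0.0536, and lay 6597 bp from any control peak. Il12a, which encodes the other subunit of IL-12 (chromosome 3), had 1 irradiated peak of fold 2.55 (q 0.915).

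Il5 encodes the main growth factor of eosinophils (chromosome 11, 53720794 to 53725103). Upstream of the gene, a control peak with 8 reads and a fold of 2.98 and an irradiated peak with 11 reads and a fold of 4.16 overlapped by 327 bp, with summits 1052 and 1318 bp before the start site. The irradiated peak over the promoter, printed above, rested on 10 reads (fold 3.84, q 0.149). Il3, which encodes a growth factor of blood precursors, lies in the same region of 655 kb with Il4 and Il13, the cytokines of type 2 immunity. It had 1 irradiated peak, 986 bp from the gene, with the lowest fold of all member peaks, 2.43 (q 0.852). Il4 and Il13 had no peak. Across the whole region 7 control and 15 irradiated peaks were listed, of which 1 and 3 were at its interleukin genes.

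**Figure D4:**
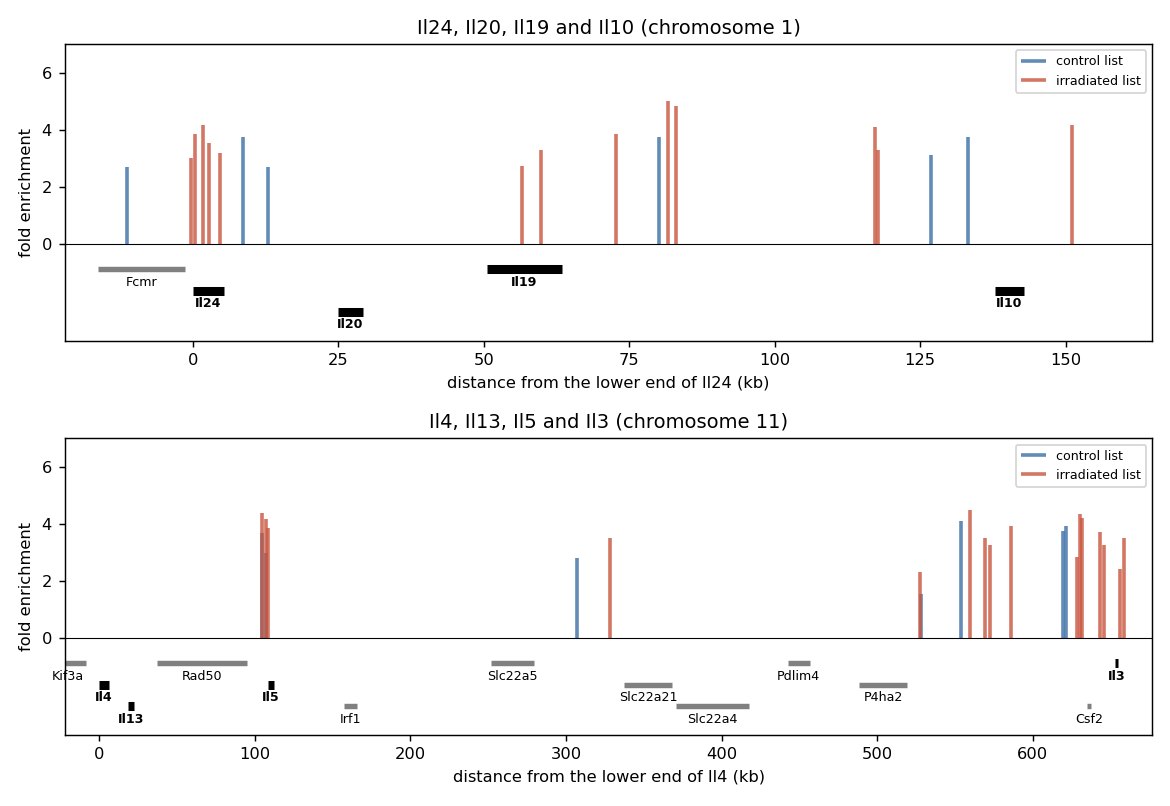
Peaks as vertical lines with their fold enrichment (y axis) along the cluster of Il24, Il20, Il19 and Il10 (top) and along the region of Il4, Il13, Il5 and Il3 (bottom), by distance in kb from the lower end of the first gene (x axis); genes are drawn below, interleukin genes in black. The 5 irradiated peaks of Il24 stand side by side at the left of the top panel, and no peak is drawn at Il20, Il10, Il4 or Il13.

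The other marked cytokine genes had a peak in the control list alone. Il6 encodes a broadly acting inflammatory cytokine (chromosome 5, 30013114 to 30019975). Its peak, 523 bp outside the gene with its summit 722 bp before the start site, rested on 10 reads (fold 3.75, q 0.385). Il21 encodes a T cell cytokine of the common gamma chain family (chromosome 3, 37222759 to 37232636). The peak at its promoter had 7 reads, the fewest in the control list, with a fold of 2.67 (q 1). No other peak lay within the 1 Mb around Il21 in either list, and the nearest irradiated peak was 822036 bp away. Its neighbour Il2, which encodes the T cell growth factor, had no peak.

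Of the 36 receptor genes 6 were marked in either list (16.7%, against 10.6% of all genes). Chains of the common gamma family made up 4 of these 6. Il2ra encodes the alpha chain of the IL-2 receptor (chromosome 2, 11642792 to 11693194). It had a control peak with 7 reads and a fold of 2.78, and irradiated peaks with 8 and 12 reads and folds of 3.14 and 4.49. These lay at different sites, at least 4144 bp apart. The adjacent Il15ra, which encodes the corresponding chain for IL-15, had 1 control peak with a fold of 3.29. Il2rb encodes the signalling chain that IL-2 and IL-15 share (chromosome 15, 78479256 to 78511621). It had a peak at 1 site in both lists, with an overlap of 387 bp. The control peak had 16 reads and a fold of 2.89 over a background of 2.78 scaled reads, and the irradiated peak had 14 reads and a fold of 3.41 over 1.57. The lowest background was 0.918 scaled reads for control and 0.704 for irradiated peaks. Il7r, which encodes the IL-7 receptor of developing lymphocytes (chromosome 15, 9506159 to 9529941), had 1 control peak with a fold of 3.43. In the family as a whole, with the related IL-13 genes, control peaks marked 5 of 17 genes (29.4%, against 6.05% of all genes). Irradiated peaks marked 2 (11.8%, against 8.20% of all genes), Il2ra and Il2rb, which also had control peaks. The lowest q among the control peaks of the family was 0.831. Il2rb and Il7r lie on chromosome 15, where control peaks marked 17.5% of all genes. The families were chosen with earlier results of these data known, so their shares are a description.

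The remaining receptor genes were each marked in 1 list. Il12rb2 encodes the signalling chain for IL-12 (chromosome 6, 67285986 to 67376293). It had 2 control peaks with folds of 3.43 and 3.75, on 9 and 10 reads, and the nearest irradiated peak was 70089 bp away. Il17rd encodes a membrane protein related to the IL-17 receptors that also restrains growth factor signalling (chromosome 14, 27038964 to 27107286). It had 2 irradiated peaks with folds of 3.36 and 4.10, on 10 and 13 reads, and the nearest control peak was 195399 bp away. The marked accessory genes both code for decoy receptors. Il1r2, the decoy for IL-1, had a control peak with a fold of 3.29, and Il22ra2, the soluble binding protein for IL-22, an irradiated peak with a fold of 3.19 and 8 reads.

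The IL-1 family, the largest with 20 members, had 1 marked gene, Il1r2. No member had an irradiated peak, and a count of 0 of 20 allows, by the same measure, a share of up to 15.0% (exact upper limit 16.8%). The 6 genes of the family that lie side by side on chromosome 1, within 467 kb, held no peak apart from that of Il1r2, and the 6 genes of the cluster on chromosome 2 (24153172 to 24351491) held none in either list. Of the IL-17 family Il17rd was marked, 1 of 11 genes (9.09%), and of the IL-10 family Il24, Il19 and Il22ra2, 3 of 11 genes (27.3%), all by irradiated peaks, which marked 8.20% of all genes. With equal numbers of peaks, Il19 and Il22ra2 were no longer marked. By chromosome, 3 of 6 interleukin genes on chromosome 11 had a peak in either list, against 15.5% of all genes there, and both on chromosome 15, against 25.4%. On chromosome 3 it was 2 of 5, against 5.49%, and on chromosome 1 it was 3 of 12, against 13.0%. Chromosome 6 had 1 of 6, against 18.4%. No interleukin gene was marked among 8 on chromosome 7, 5 on chromosome 8 and 5 on the X chromosome, where 7.09%, 10.5% and 2.07% of all genes were. Those on chromosomes 4, 9, 13, 16, 18 and 19, at most 3 on each, were also unmarked.

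Peaks around the genes, in 1 Mb centred on each but outside its own window, were more numerous at marked members. Their median was 6.5 control and 8.5 irradiated peaks, against 2 and 6 at the 67 unmarked members and 2 and 4 at all protein-coding genes. Il12b had 31 control and 59 irradiated peaks around it, Il2rb 10 and 49, and Il7r 31 and 15. Il17b, an unmarked cytokine gene on chromosome 18, had the most irradiated peaks around it, 97, with 24 control peaks. The part of this local density in the marking of single genes was not tested. Gene length had a median of 13.7 kb in marked and 14.6 kb in unmarked members.

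**Figure D5:**
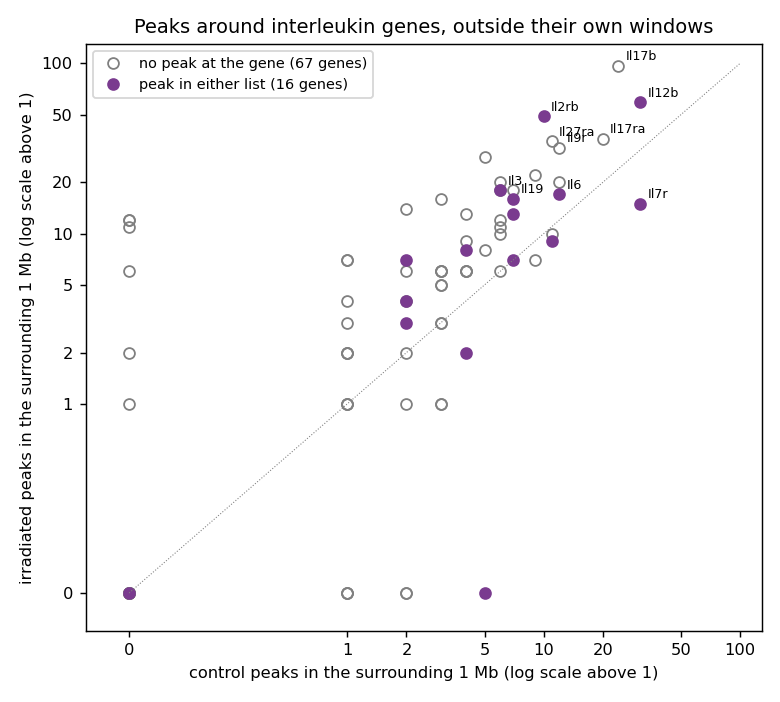
Control peaks (x axis) and irradiated peaks (y axis) in the 1 Mb around each of the 83 interleukin genes, outside the gene's own window, on axes that are logarithmic above 1; filled points are the 16 marked genes, open points the 67 unmarked ones, points of equal values lie on top of each other, and the dotted line marks equal numbers. Il12b and Il2rb lie at 59 and 49 irradiated peaks, and Il21 at 0 in both lists.

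The limit of 2000 bp decided some cases. Inside it, but outside the gene, lay the control peaks 105 bp from Il21, 523 bp from Il6 and 753 bp from Il5. The irradiated peaks 211 bp from Il24, 860 bp from Il5, 986 bp from Il3 and 1256 bp from Il12b lay there too. With gene bodies alone, Il21, Il6 and Il5 were no longer marked in the control list, nor Il3 in the irradiated list. Il12b stayed marked in both. In the irradiated list Il24 and Il5 also stayed marked, and the strongest fold of Il5 fell from 4.16 to 3.84. Just outside the limit lay irradiated peaks 2353 bp from Il12b, with a fold of 4.10, and 2572 bp from Il22, the cytokine of epithelial defence, with a fold of 3.67. Between 2000 and 5000 bp there were also 2 irradiated peaks with a q of at most 0.05: one 4570 bp from Il12b, with 15 reads (fold 4.78, q 0.0107), and one 3752 bp from Il10ra, a receptor chain for IL-10, with 13 reads (fold 4.21, q 0.0421).

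Other genes of interleukin signalling, without an interleukin symbol, numbered 56. Control peaks marked 3 of these (5.36%) and irradiated peaks 6 (10.7%), with 2 in both lists, against 6.05% and 8.20% of all genes. None of the 9 ligand genes and none of the 13 genes of signalling inhibitors, such as the Socs family, was marked, including Csf2, which lies between Il5 and Il3. Of 10 receptor genes 5 were marked in either list (50%, against 10.6% of all genes). They were Lifr, with 6 control and 14 irradiated peaks, Csf1r, with 2 irradiated peaks, and Osmr, Csf2rb2 and Ifnlr1, with 1 peak each. Among these receptor genes Lifr alone had a q of at most 0.05, in both lists. The signalling lists were chosen with earlier results of these data known, so their shares are a description. Lifr, Osmr and Csf2rb2 lie on chromosome 15, where 25.4% of all genes were marked in either list. Csf2rb2, a beta chain for IL-3 on chromosome 15, had an irradiated fold of 2.81, and Osmr, the oncostatin M receptor gene, a control fold of 2.72. Of 24 genes of signal transduction 2 were marked. Stat4, which encodes the transcription factor downstream of IL-12, had 3 irradiated peaks with a highest fold of 4.16, and Irak3, an inhibitory kinase of the IL-1 receptor pathway, had 1 control peak of fold 3.11 and 1 irradiated peak of fold 2.68. The genes for the JAK kinases had no peak.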

How the data were processed

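H3K27me3 ChIP-seq of GL261 cells was deposited as 1 peak list per library (control and irradiated). Per the labels' protocols, chromatin was fixed with 1% formaldehyde, sonicated to 300 to 500 bp and sequenced as pairs of 150-bp reads. BWA, deepTools and mm10 are named in the submitters' processing notes; caller and use of the input: not given in the sources used here. In the deposited lists, the other values are positions of start, end and summit in bp, the score is 10 times the −log10 p cut to a whole number, the ratio is the fold over the caller's background, and the −log10 p and −log10 q are the authors' own. The lists reach down to an unadjusted p of 0.00495 (control) and 0.00499 (irradiated).

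Lines for further summits of one interval (215 and 679) were merged. Reads and background were recovered from fold and p with a Poisson model, within a tolerance of 0.002, for 100% of lines. Several solutions were found for 0.0198% of the control and 0.698% of the irradiated lines. On simulated lists of 3892 and 3866 peaks 100% were right, which cannot show whether the unnamed caller used this model. Library totals are unknown. Overlap means at least 1 bp. Genes and start sites came from RefSeq tables of GRCm38.p6, without mitochondrial genes; exons and introns were not resolved. Members, roles, families and signalling lists were chosen with earlier results of these data known, and Il1f5, which encodes the IL-36 receptor antagonist, was moved from the cytokines to the accessory genes. All members with a peak were named. Python 3.11.15, pandas 2.3.3, NumPy 2.4.6, SciPy 1.17.1 and Matplotlib 3.10.9 were used. Alternatives are in the closing section.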

Additional observations from a re-analysis of the deposited data

How the results depend on the processing

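When q was limited to 0.05, the counts of members marked in the control list, in the irradiated list and in both were 0, as were the numbers of control and irradiated peaks at members, so no share of shared peaks could be given. With a −log10 p of at least 5, 0 members with 0 peaks were left in the control list, 3 members (Il24, Il2ra and Il5) with 3 peaks in the irradiated list, and 0 in both. With as many irradiated as control peaks, taken by p, the irradiated list marked 6 members with 9 peaks, below the 10 members and 12 peaks of the control list, so the order of the peak numbers turned. Without chromosomes 6, 11 and 15, a setting chosen after seeing the data, 5 members with 5 control peaks, 6 members with 13 irradiated peaks and 1 member in both were left. Gene bodies alone (7 control members, 9 irradiated, 3 in both), a window of 5000 bp (12, 13 and 5) and a reciprocal overlap of 50% (25.0% of control peaks shared) kept all counts and the share within 1.5 times or the counting interval. Of 20 values of the strongest fold, 1 of the 16 left moved with gene bodies alone and 3 of 20 with the window of 5000 bp. For equal peak numbers, dropped chromosomes, gene bodies and 5000 bp no share of all genes is given. Those counts describe the members alone. No paired analysis was possible because each group has 1 library. Depth limits every statement: member peaks rest on 7 to 16 reads, and library totals are unknown.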
